A study of Rattus norvegicus with 18 samples.

Results

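Blood of Brown Norway (BN) and Sprague Dawley (SD) rats that had both received procainamide was compared, on 4 BN arrays and 5 SD arrays chosen by their titles. These are 9 of the 18 arrays of the series. All animals were male. The treated rats of either strain were given procainamide at 40 mg/kg, the control rats of either strain sterile water, and blood was drawn from the venous sinus of the eye at the end of treatment. The 9 control arrays, 4 BN and 5 SD, serve here only to set the strain difference without the drug beside that under the drug. Age and length of treatment are not given in the sources used here. BN is an inbred strain and SD an outbred stock. Each sample was hybridised in Cy5 to an Agilent rat array against a Cy3 reference of its own strain. As the references of the strains differ, levels are normalized log2 Cy5 alone, and a difference is always BN minus SD. The series asks what cellular and genetic factors have to do with strain differences in procainamide-induced autoimmunity; a further strain it names, LEW, is not analysed here. The labels do not say that each array holds blood of a separate animal, so the tests measure only how far these samples spread.

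Procainamide is an antiarrhythmic drug that induces lupus-like autoimmunity in some patients. The liver removes it by acetylation, and activated neutrophils oxidise it to a reactive hydroxylamine. It also inhibits DNA methylation in T cells, which raises methylation-sensitive genes such as Itgal, the alpha chain of the integrin LFA-1. Whole blood RNA comes from reticulocytes, platelets, granulocytes, monocytes and lymphocytes together, so a difference between strains may lie in how many cells of a type were present or in the RNA of each cell, and these cannot be told apart in bulk samples.

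Median raw Cy5 intensity ranged from 1694 to 3187 in BN and from 1446 to 2628 in SD. Cy5 was well above background at 73.4% to 84.3% of probes in BN and at 82.6% to 87.1% in SD, and no spot was saturated. Within a strain, arrays correlated at r from 0.983 to 0.993 in BN and from 0.985 to 0.996 in SD over all probes tested. BN array 1 stood apart from the other BN arrays for several granule genes and for Retn, as described with those genes. The 4 BN arrays were on a slide of their own. SD arrays 1 to 3 shared a slide with the SD controls and were scanned on the same day as the BN arrays. SD arrays 4 and 5 shared a slide with the BN controls and were scanned on another day. No slide held procainamide arrays of both strains, so slide and strain cannot be told apart in this comparison. A call kept with the slide as a random block does not remove this limit. Genes that lost their call with the slide as a random block or with scan day as a term are named with their group. Markers of blood were present on all 9 arrays: Hba-a1, the alpha chain of haemoglobin, averaged 16.7 ± 0.16 (SD, n = 4) in BN and 16.6 ± 0.19 (SD, n = 5) in SD, and Cd74, the invariant chain of antigen-presenting cells, 17.0 ± 0.14 and 17.0 ± 0.26.

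Of 25487 probes tested, 5261 (20.6%) differed between the strains under procainamide at an adjusted p below 0.05 in limma, 2169 higher in BN (8.51%) and 3092 lower (12.1%). With the scanner software's processed Cy5 scaled to each array's 75th percentile, the split was 1798 higher and 4585 lower. Named genes, each represented by its brightest probe, numbered 13162, of which 2598 (19.7%) differed, 1283 higher in BN (9.75%) and 1315 lower (9.99%). Most of these differences were small: 1599 were under 1.5-fold, 299 (2.27%) reached 2-fold (157 higher in BN, 1.19%, and 142 lower, 1.08%), 45 reached 4-fold and 15 reached 8-fold, 9 of the last higher in BN and 6 lower. In 1600 genes (12.2%) the difference passed the test and no BN array overlapped an SD array. The median SE of a difference was 0.132 on the log2 scale, and the median difference over all named genes was 0.0247. The count of probes fell to 2127 with the slide as a random block, to 2630 with scan day as a term, and to 721 on the 7 procainamide arrays of the shared day alone. It was 3443 without BN array 2 and 3260 without BN array 4.

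Genes far higher in BN included the drug-oxidising cytochromes Cyp2d1 and Cyp2d5, the acute-phase protein haptoglobin (Hp) and the lectin intelectin (Itln1). Cyp2d1 lay at 12.98, 13.04, 13.57 and 12.996 in BN arrays 1 to 4, and at 8.90, 9.05, 8.82, 8.60 and 8.62 in SD arrays 1 to 5. All BN arrays were high and all SD arrays low, with a wide gap between them. The difference was 4.35 (SE 0.14), or 20.4-fold, with an adjusted p of 7.73e-13 in limma. Cyp2d5 was at 13.08, 13.25, 13.70 and 13.11 in BN and at 8.86, 9.23, 9.06, 8.86 and 8.90 in SD, 19.8-fold apart. In both genes BN array 3 was the highest, and no SD array came near the BN arrays. Hp, which binds free haemoglobin, was at 12.85, 13.72, 13.32 and 13.56 in BN and at 10.38, 10.56, 10.31, 9.92 and 10.16 in SD. The groups did not overlap, and the difference of 3.10 (SE 0.19) was 8.56-fold with an adjusted p of 8.60e-09.

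**Figure D1:**
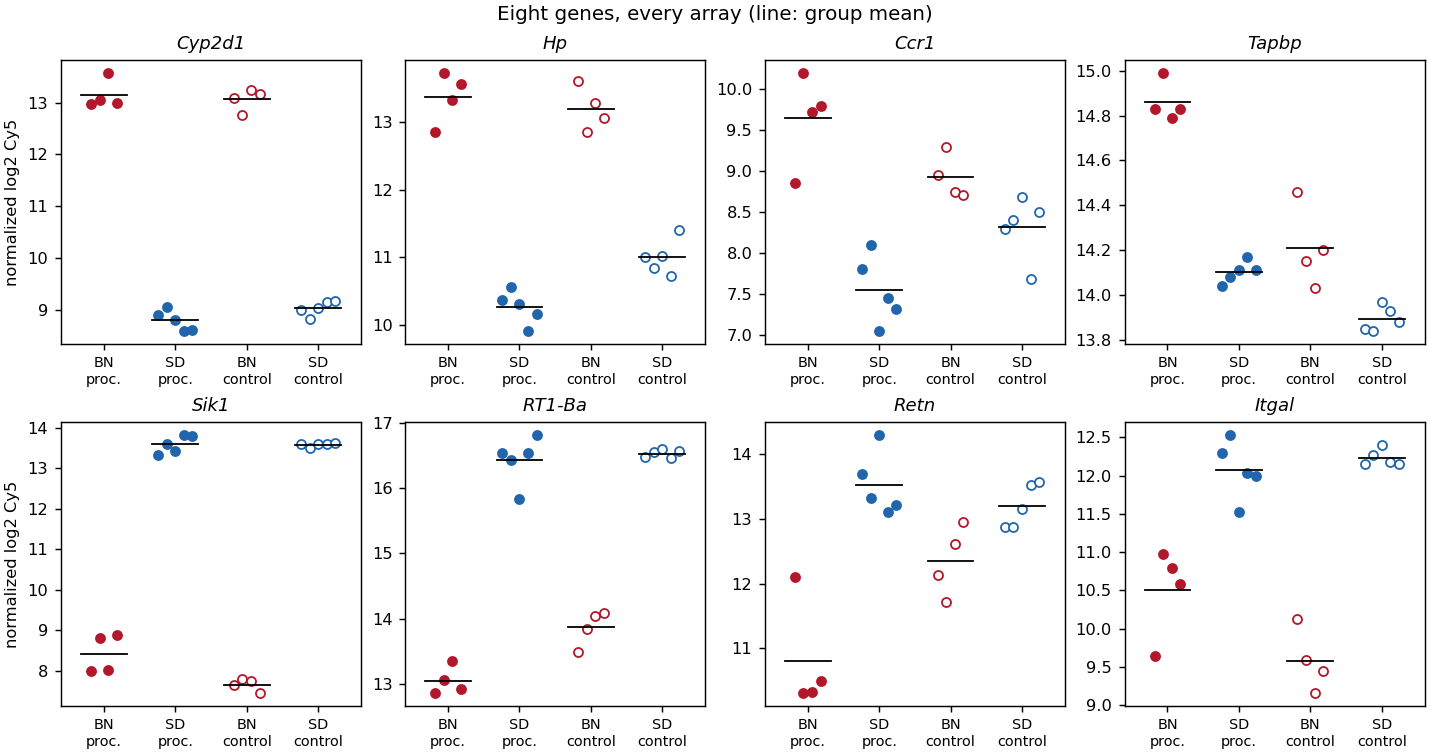
Normalized log2 Cy5 of 8 genes (vertical axis, a scale for each panel) on every array, with procainamide arrays as filled and control arrays as open circles, BN red and SD blue, and a line at each group mean. Under procainamide no BN array overlaps an SD array for any of the 8: Cyp2d1, Hp, Ccr1 and Tapbp are higher in BN, and Sik1, RT1-Ba, Retn and Itgal lower.

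Echdc2, a mitochondrial enoyl-CoA hydratase family member, lay at 9.63, 10.04, 10.07 and 10.03 in BN and was not well above background on any SD array. It was at least 12.5-fold higher in BN, where the bound takes the dimmest signal well above background on each SD array, or the probe's own signal if that is higher. Itln1 was at 10.25, 11.53, 11.41 and 10.83 in BN and at 7.59, 7.53, 7.76, 7.06 and 7.31 in SD. All BN arrays lay above all SD arrays, 11.8-fold on average (adjusted p 2.01e-07). The other genes at this end were Gpr15lg (8.75-fold), which encodes a ligand of the lymphocyte homing receptor GPR15, Bcl2l15 (8.61-fold), a member of the Bcl-2 family, the homeobox gene Rhox5 (8.50-fold), the protease inhibitor Spink2 (6.27-fold, with its other probe at 10.6-fold), Pyroxd2 (5.97-fold), the somatostatin receptor Sstr3 (5.76-fold) and the fatty acid transporter Slc27a2 (5.21-fold). Slc27a2 varied widely among BN arrays, at 11.08, 11.19, 8.31 and 9.01, and lost its call with the slide as a random block (adjusted p 0.0570).

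Genes far lower in BN were led by Sik1, a salt-inducible kinase, at 7.99, 8.80, 8.02 and 8.90 in BN arrays 1 to 4 and at 13.33, 13.60, 13.42, 13.82 and 13.79 in SD arrays 1 to 5. The strains were more than 4 units apart at their nearest arrays. The difference of -5.16 (SE 0.17) was 35.8-fold, with an adjusted p of 1.12e-12. Vegfb, a growth factor of the VEGF family, was at 9.03, 8.65, 8.65 and 8.85 in BN and at 12.81, 12.78, 12.96, 12.77 and 12.78 in SD, 16.2-fold lower in BN (adjusted p 5.65e-05), and BN control 4, at 11.75, was far from the other BN controls. Retnla, a resistin-like molecule known from alternatively activated macrophages, was at 9.50, 10.51, 8.93, 9.76 and 11.91 in SD and not well above background on any BN array, so that it was at least 14.7-fold lower there. Its relative resistin, Retn, was at 12.11, 10.31, 10.32 and 10.50 in BN and at 13.70, 13.32, 14.30, 13.11 and 13.21 in SD. BN array 1 was the highest of the BN arrays for Retn, yet lay below every SD array (6.58-fold, adjusted p 7.13e-05).

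RT1-Ba, the alpha chain of the MHC class II B molecule of the rat, was at 12.87, 13.06, 13.35 and 12.93 in BN and at 16.53, 16.43, 15.84, 16.54 and 16.81 in SD. The gap was wide on every array, and the difference of -3.38 (SE 0.16) was 10.4-fold (adjusted p 2.48e-10). Also lower in BN were the elastase Cela1 (9.01-fold), the embryonic globin Hbe1 (8.37-fold), Tex10 (7.43-fold), the meiotic gene Syce1, the transcription factor Ascl3 (6.24-fold), the kallikrein Klk1b3 (6.02-fold) and Spmap2l (5.67-fold). Syce1 was well above background on 1 of 4 BN arrays, and its measured difference of -2.65 ran from -2.37 to -4.52 over the alternatives. The other probe of Tex10 did not pass the test (-0.26, adjusted p 0.314). Whether the strains differ in sequence under a probe, which could alter its signal, was not tested for any gene here. Of the 24 genes at both ends, 23 kept their call under each of the 22 alternative settings tried, Slc27a2 being the exception.

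Of the 299 genes called at 2-fold or more under procainamide, 188 were called in the same direction in the control arrays, 93 were not called there and 18 were called in the opposite direction. Over all sizes, of the 2598 genes called, 684 were called in the same direction in controls, 634 in the opposite direction and 1280 not at all. The 684 were 26.3% of the genes called under procainamide and 14% of the 4876 called in controls. The controls had 38.9% of probes and 37.0% of named genes called, 16.7% of genes higher in BN and 20.3% lower. The BN and SD controls were scanned on different days, so that strain and scan day cannot be told apart in these control calls, and with scan day as a term the 9926 probes called in controls became 382. In controls Sik1 differed by -5.92, Cyp2d1 by 4.02, Cyp2d5 by 4.17 and Vegfb by -4.02, against -5.16, 4.35, 4.31 and -4.02 under the drug. Hp differed by 2.19 in controls and 3.10 under the drug, and RT1-Ba by -2.65 and -3.38.

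**Figure D2:**
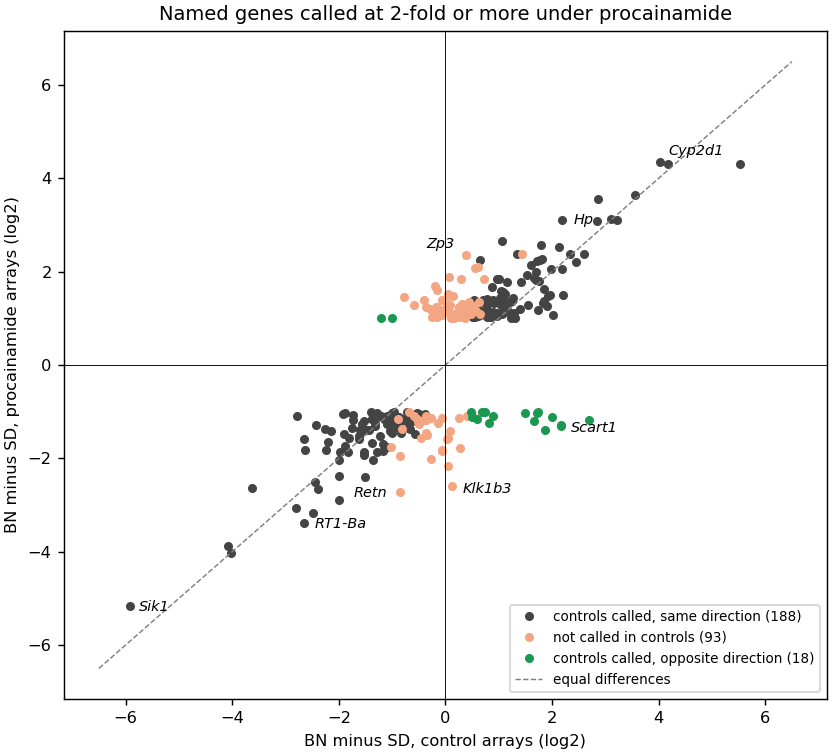
BN minus SD difference on the log2 scale in control arrays (horizontal) against that in procainamide arrays (vertical) for the 299 named genes called at 2-fold or more under procainamide. Colours give the call in control arrays, and the dashed line marks equal differences. Of the points, 188 are called in the same direction in controls, Sik1 and Cyp2d1 among them, while Klk1b3 and Zp3 have a large difference in treated arrays and a small one in controls.

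Whether the strain difference itself was different under the drug was tested as the treated minus control difference. It passed at 8854 probes (34.7%; 14.6% upward and 20.2% downward) and in 4194 named genes (31.9%), 1467 of them among the 2598 called under procainamide. That count differed widely between fits. All BN controls were scanned on another day than the SD controls. With scan day as a term no probe passed in limma (2719 probes at an unadjusted p below 0.05), and why was not tested. With array brightness as a term 986 passed. Scan day and the control strain difference cannot be told apart, so these differences are given as values. Among called genes, the smallest p-values belonged to Guca1b, Rnf112, Rasgef1c, Hyal1, Xkr6, Adgrb1, Vom2r36 and Or4d2b, each lower in BN under the drug and higher in BN without it. Hyal1, a lysosomal hyaluronidase, was at 9.40, 8.99, 9.23 and 8.91 in treated BN and at 9.68, 9.34, 9.84, 10.002 and 10.09 in treated SD. One BN array lay within the SD range. Hyal1 differed by -0.66 under procainamide and by 1.38 in controls (treated minus control -2.03, adjusted p 3.13e-05). It lost its call under procainamide with scan day as a term (adjusted p 0.0515).

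The tissue kallikreins are serine proteases encoded side by side, of which Klk1 releases kinins that dilate vessels. Of 13 tested, 8 were lower in BN under procainamide and 0 higher in limma (8 and 1 at an unadjusted p below 0.05), where 9.99% of all named genes were lower and 9.75% higher. All 8 were called without overlap between strains. Of all named genes 12.2% were called without overlap, or 1600 of the 2598 called. The median of the 13 differences was -0.76, against 0.12 in controls. Klk1b3 was at 9.01, 10.11, 8.88 and 9.11 in BN arrays and at 12.06, 12.05, 11.36, 11.64 and 12.24 in SD arrays. Every BN array was low, and the difference was -2.59 (SE 0.25, adjusted p 3.22e-06), with 0.12 in controls. Klk1 itself was at 10.36, 10.53, 9.88 and 10.09 in BN and at 12.08, 11.96, 11.66, 12.04 and 12.17 in SD, 3.405-fold lower in BN (adjusted p 1.87e-06). Klk1c8 (3.59-fold), Klk1c3 (3.51-fold), Klk1c2 (1.93-fold), Klk10 (1.77-fold) and Klk1c12 (1.38-fold) were lower as well, as was Klk1c9, at least 1.70-fold and not well above background on any BN array. Klk7 (-0.32), Klk13 (-0.31), Klk11 (0.10), Klk1c10 (0.22) and Klk12 (0.38) did not pass the test. Between 5 and 9 members were called under the alternative settings, 5 on the procainamide arrays of the shared day alone. Klk1c2 and Klk1c12 lost their call with the slide as a random block, and Klk1c12 with scan day as a term. Probes of such closely related genes may bind each other's transcripts, so the 8 may not be separate measurements. The kallikreins were made a list with earlier results of these data known.

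**Figure D3:**
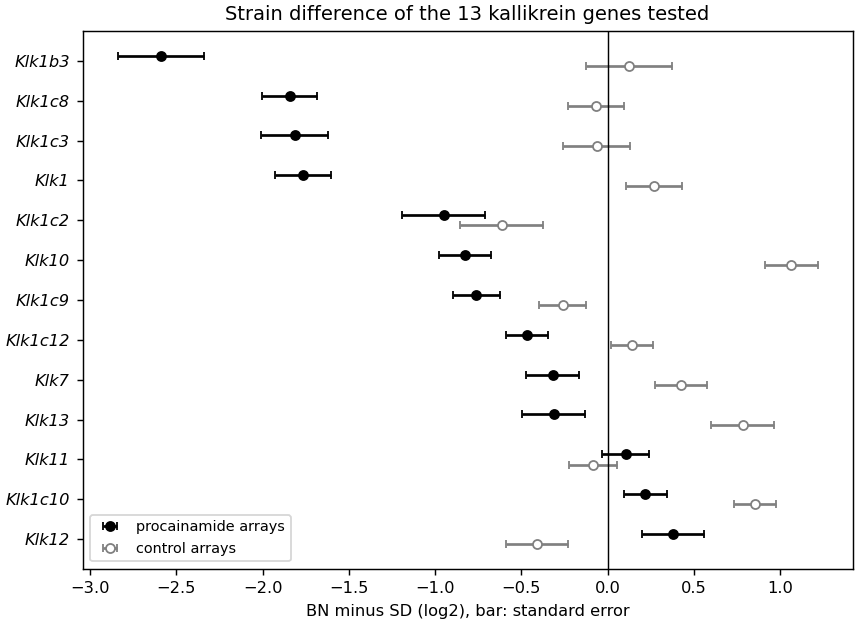
BN minus SD difference on the log2 scale (horizontal) of the 13 kallikrein genes tested, in procainamide arrays (filled) and in control arrays (open), with bars of 1 standard error from the limma fit. Klk1b3, Klk1c8, Klk1c3 and Klk1 lie between -2.59 and -1.77 under procainamide and between -0.07 and 0.27 in controls.

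The relatedness of the 4 kallikreins with the smallest p-values shows in their upstream sequence (RefSeq, build GRCr8). Each stretch starts at a run of bases shared by all 4 and is given on the coding strand, with capitals where a base differs from Klk1c8. They lie at chr1:103684182-103684233 (Klk1c8), chr1:103779093-103779144 (Klk1), chr1:103845553-103845604 (Klk1b3) and chr1:103808013-103808064 (Klk1c3), all on the plus strand.
Klk1c8: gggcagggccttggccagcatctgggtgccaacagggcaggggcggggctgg
Klk1: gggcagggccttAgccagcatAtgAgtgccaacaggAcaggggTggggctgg
Klk1b3: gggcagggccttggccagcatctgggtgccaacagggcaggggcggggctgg
Klk1c3: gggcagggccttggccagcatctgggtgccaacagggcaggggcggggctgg
Klk1b3 and Klk1c3 matched Klk1c8 at 52 of 52 bases and Klk1 at 47. The run GTGCCAACAGG is the longest stretch past the shared start that is alike in all 4. It was searched on both strands of the 250 bases upstream of every gene start. It was found at 7 of 33469 starts (0.0209%). Among the kallikreins tested, 12 had an upstream sequence, and 6 held the run: Klk1c8, Klk1, Klk1b3, Klk1c3 and Klk1c12, all lower in BN, and Klk1c10, which was not called. The first 4 of these hold it because it was taken from them, so their matches show nothing about the strain difference.

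Genes that acetylate, oxidise or transport drugs were tested as a list of 25, of which 5 were higher in BN and 2 lower. Of all named genes, 9.75% were higher and 9.99% lower. Beside Cyp2d1 and Cyp2d5, the flavin monooxygenase Fmo5 was at 8.36, 9.06, 9.45 and 8.93 in BN and at 10.55, 10.61, 10.01, 10.33 and 10.005 in SD, 2.55-fold lower in BN (adjusted p 7.21e-05). No array overlapped between strains, and the controls differed in the same direction, by -1.76. Cyp4f6 was 1.46-fold higher in BN, and the exporter Slc47a1 1.55-fold lower. The arylamine acetyltransferases, which inactivate procainamide, did not pass the test, and Slc47a1 lost its call with the slide or scan day in the fit. Nat1 differed by 0.21 (adjusted p 0.172) and Nat2 by -0.34 (adjusted p 0.218).

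Cyp2d1 and Cyp2d5 are neighbouring copies of one gene family, and transcripts of one may bind the other's probe. Their upstream sequences (RefSeq, GRCr8, minus strand, chr7:115793463-115793542 and chr7:115784555-115784634), aligned on a shared ctttataag, are shown to make this likeness visible, with capitals at the bases that differ.
Cyp2d1: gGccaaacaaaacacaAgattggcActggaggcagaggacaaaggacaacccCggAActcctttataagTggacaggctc
Cyp2d5: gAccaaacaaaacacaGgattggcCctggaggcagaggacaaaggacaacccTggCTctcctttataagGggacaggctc
They matched at 73 of 80 bases (91.2%).

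The RT1 complex is the major histocompatibility complex of the rat, where strains carry different haplotypes. Of 16 genes of class II presentation tested, 4 were higher in BN and 1, RT1-Ba, lower, beside 9.75% and 9.99% of all named genes. RT1-Bb, which encodes the beta chain that joins RT1-Ba, gave opposite results on its 2 probes. On the brighter probe it was at 15.97, 16.23, 16.35 and 16.03 in BN and at 15.13, 15.47, 15.14, 15.01 and 15.05 in SD, 1.98-fold higher in BN (adjusted p 1.44e-04). On the other probe it was at 9.10, 8.62, 8.78 and 9.75 in BN and at 15.35, 15.40, 15.50, 15.87 and 15.74 in SD, a difference of -6.51 (SE 0.95, adjusted p 2.34e-04). On that probe BN control 4 was at 15.85, among the SD arrays, while BN controls 1 to 3 lay at 8.66, 9.15 and 9.82. No single direction can be given for RT1-Bb, which the 4 higher include by its brighter probe. The class II activators Ciita (0.40) and Rfx5 (0.43) and the chain RT1-DOb (0.61) were slightly higher in BN, and the other class II chains differed little: RT1-Da by 0.04, RT1-Db1 by -0.06 and Cd74 by 0.06, none past the test. Rfx5 lost its call with the slide or scan day in the fit and RT1-DOb with the slide, and without BN array 2 the list had 3 genes called in place of 5.

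In class I presentation, 1 of 19 genes was higher in BN and 1 lower, beside 9.75% and 9.99% of all named genes. Tapbp, which encodes tapasin and loads peptide onto class I molecules, was at 14.83, 14.99, 14.79 and 14.83 in BN and at 14.04, 14.08, 14.11, 14.17 and 14.11 in SD. These groups were tight and apart, 1.70-fold with an adjusted p of 8.47e-06. The class I heavy chain RT1-CE3 was at 13.77, 14.32, 14.36 and 13.80 in BN and at 15.51, 15.46, 15.02, 15.68 and 15.76 in SD, 2.68-fold lower in BN (adjusted p 2.66e-04). B2m, the light chain of class I, differed by 0.03 (adjusted p 0.877). Tapbp and RT1-CE3 kept their calls under all 22 alternatives.

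Interferon gamma is the cytokine of T and NK cells that activates macrophages and antigen presentation. Of 27 genes of this pathway tested, 10 were higher in BN and 1 lower, beside 9.75% and 9.99% of all named genes. The median difference was 0.32, against -0.15 in controls. Gbp2, a guanylate-binding protein induced by interferon gamma, was at 15.92, 16.16, 15.93 and 16.15 in BN and at 15.40, 15.57, 15.64, 15.34 and 15.42 in SD. All BN arrays lay above all SD arrays, though by little (1.48-fold, adjusted p 5.12e-04). Igtp (1.43-fold) and Irgm (1.48-fold), immunity-related GTPases, were higher in BN too, as were the receptor chain Ifngr2 (1.29-fold), the receptor Cxcr3 (1.44-fold), the signal transducer Stat4 (1.25-fold), and the interleukin 12 receptor chains Il12rb1 (1.33-fold) and Il12rb2 (1.34-fold).

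Acod1, which makes itaconate in activated macrophages, was at 11.46, 14.01, 12.96 and 12.20 in BN and at 10.88, 11.72, 11.93, 10.26 and 11.24 in SD, with BN array 1 inside the SD range (2.74-fold, adjusted p 0.0356). The tryptophan-degrading enzyme Ido1 was 1.73-fold higher in BN (adjusted p 0.0418). Il12b, a chain of interleukin 12, was 2.24-fold lower in BN (adjusted p 3.15e-03) and lower in controls too (-1.37). Ifng itself differed by 0.66 with a wide spread (adjusted p 0.267), and its targets Irf1 (0.17), Cxcl9 (0.21) and Cxcl10 (0.09) did not pass the test. The 10 higher became 3 with the slide as a random block, 4 with scan day as a term and 6 on the arrays of the shared day. On the procainamide arrays of that day alone it was 0 in limma, where 9 had an unadjusted p below 0.05. Igtp, Irgm, Stat4, Il12rb2, Acod1 and Ido1 lost their call in both of the first fits, and Il12rb1 with the slide. The 11 called in either direction became 7 without BN array 2 and 6 without BN array 4.

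The GTPase genes and Gbp2 are shown with their upstream sequence because they carry the letters that interferon-activated factors are known to bind (RefSeq, GRCr8). Capitals mark matches, on either strand, to the GAS motif TTCNNNGAA and to an ISRE core, which is GAAA, any 2 bases and GAAA again. The matches did not overlap. The stretches are chr10:42874923-42874967 (plus strand), chr10:33742589-33742633 (minus strand) and chr2:234005686-234005726 (plus strand).
Igtp: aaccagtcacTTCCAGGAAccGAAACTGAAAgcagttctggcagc
Irgm: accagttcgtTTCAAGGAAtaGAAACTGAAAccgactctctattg
Gbp2: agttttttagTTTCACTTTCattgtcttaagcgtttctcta
Of all 33469 upstream stretches of 250 bases, 7.67% held the GAS letters and 3.41% the ISRE core, and 0.43% both. Upstream sequence was at hand for 23 of the 27 pathway genes. GAS letters were found in 3 of the 9 genes higher in BN and in 4 of the 14 not called, and the ISRE core in 4 of the 9 and 3 of the 14. A match is a description of letters and not a site.

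Neutrophils, the most numerous granulocytes, showed, in the fit over all arrays, the largest share of members higher in BN among the 34 lists examined. Of 30 markers tested, 17 were higher in BN and 1 lower, beside 9.75% and 9.99% of all named genes. The median difference was 0.93, against 0.07 in controls, where 11 of the 30 were higher in BN and 2 lower. The treated minus control difference passed upward in 8 and downward in 2. Of the 30, 5 were called without overlap between strains, beside 12.2% of all named genes, which is 1600 of the 2598 called. The alarmins S100a8 and S100a9, abundant proteins of neutrophil cytosol, were 2.24-fold and 2.31-fold higher in BN. S100a8 was at 14.27, 15.16, 15.31 and 15.21 in BN and at 13.70, 14.66, 13.83, 13.42 and 13.48 in SD. BN array 1 lay below SD array 2, so the groups overlapped (adjusted p 9.05e-03). The collagenase Mmp8 was at 9.21, 10.52, 11.16 and 10.06 in BN and at 8.31, 9.26, 7.60, 8.28 and 8.35 in SD, again with SD array 2 above BN array 1 (3.67-fold, adjusted p 1.30e-03).

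The granule proteases of neutrophil precursors showed the same BN array apart. Prtn3 was at 9.14, 11.34, 11.13 and 11.27 in BN and at 8.26, 8.53, 8.98, 8.21 and 8.39 in SD (4.75-fold, adjusted p 9.38e-04). Elane was at 7.38, 9.41, 9.30 and 9.30 in BN and at 7.40, 7.34, 7.27, 7.29 and 7.34 in SD (2.87-fold, adjusted p 5.40e-03), and Ctsg was 3.98-fold higher. BN array 1 was at or near the SD level in all 3. The antimicrobial proteins Ltf, Camp, Ngp, Lcn2 and Defa5 were 2.37-fold, 2.50-fold, 4.17-fold, 2.44-fold and 2.45-fold higher. Padi4, the enzyme that citrullinates histones in neutrophil traps, was 1.84-fold higher. Bpi, an endotoxin-binding granule protein, was the exception at 2.96-fold lower in BN (adjusted p 4.27e-04). In controls Prtn3 differed by 1.77, Elane by 1.11 and Ctsg by 1.71. Ngp differed there by 1.99, Defa5 by 1.55, Camp by 1.12, Lcn2 by 1.04 and Ltf by 0.26. S100a8, S100a9, Mmp8 and Bpi differed there by 0.58, 0.26, 0.08 and -0.46. Mpo, the enzyme that oxidises procainamide in neutrophils, is not among the genes tested.

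The mean level of the neutrophil list ran from 11.76 to 12.67 on treated BN arrays, with BN array 1 lowest. On treated SD arrays it ran from 11.49 to 11.80. On control arrays it ran from 11.98 to 12.46 in BN and from 11.67 to 12.01 in SD. The count of members higher in BN was 9 with the slide as a random block, 11 with scan day as a term, 7 on the arrays of the shared day and, in limma, 0 on the procainamide arrays of that day alone, where 16 had an unadjusted p below 0.05. Among 17 platelet markers, 7 were higher on the arrays of the shared day and 3 on its procainamide arrays alone, so that the neutrophil share was not the largest there. S100a9 and Defa5 lost their call with the slide or scan day in the fit, Ngp and Lcn2 with the slide, and S100a8 with scan day. Without BN array 1 the count was 19 and without BN array 2 it was 11. The median difference stayed at 0.82 or above in each of the slide and day fits. The part of slide and scan day in the neutrophil difference was not tested beyond these values.

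**Figure D4:**
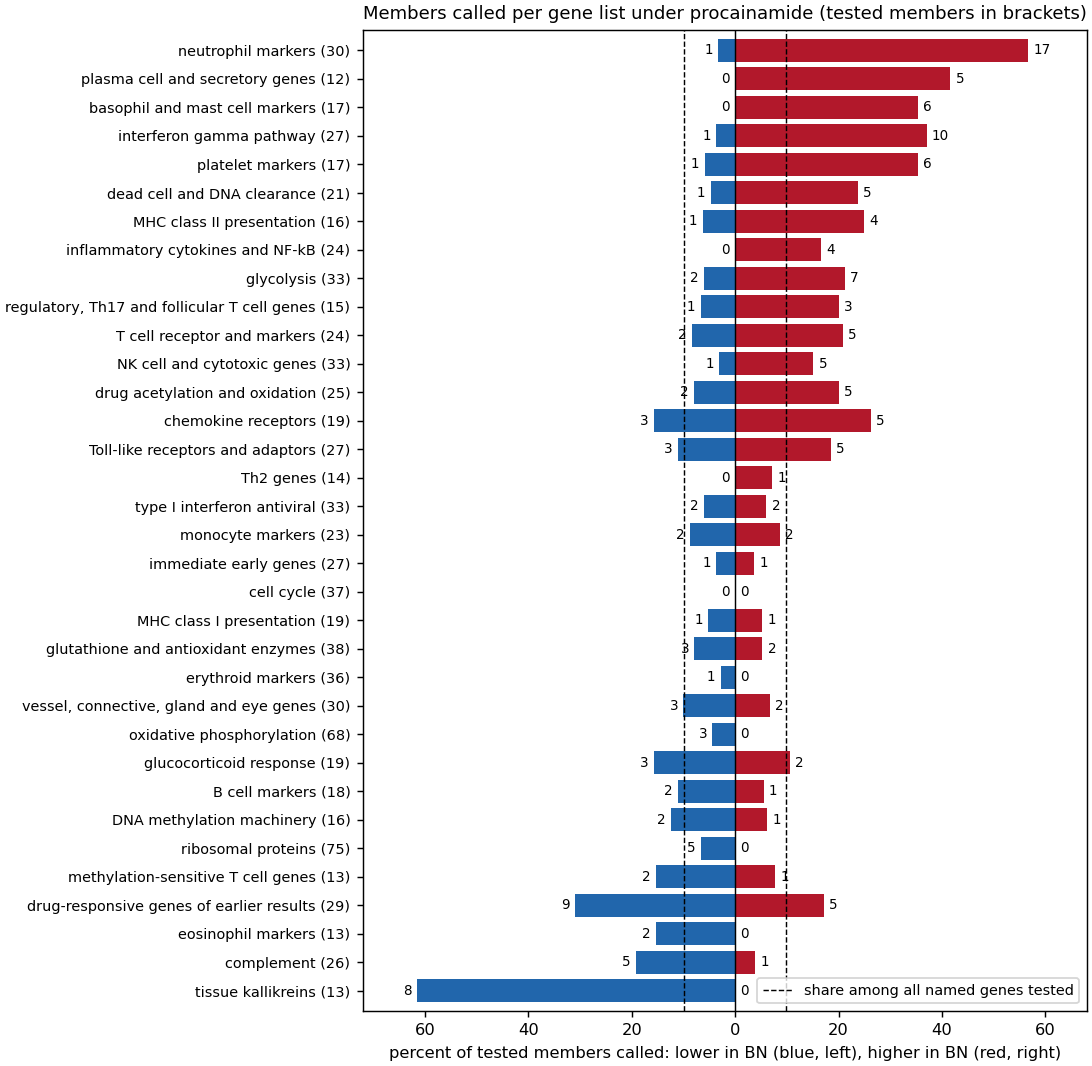
Share of tested members called higher in BN (red, right) and lower in BN (blue, left) under procainamide for each of the 34 gene lists, with the number called at the bar's end and the number tested in brackets. Dashed lines mark the share among all named genes, 9.75% higher and 9.99% lower. Neutrophil markers, with 17 of 30 higher, and tissue kallikreins, with 8 of 13 lower, reach furthest.

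Chemokine receptors and cytokines were counted beside the 9.75% of all named genes higher in BN and the 9.99% lower. Among 19 chemokine receptors, 5 were higher in BN and 3 lower. Ccr1, a receptor of granulocytes and monocytes, was at 8.85, 10.19, 9.72 and 9.79 in BN and at 7.80, 8.09, 7.05, 7.45 and 7.31 in SD, with no overlap (4.28-fold, adjusted p 4.25e-05). It kept its call under all 22 alternatives. Cxcr2, the main neutrophil chemokine receptor, was at 10.73, 11.22, 11.03 and 11.25 in BN and at 9.67, 10.67, 9.85, 9.37 and 9.36 in SD, also without overlap (2.42-fold, adjusted p 3.73e-03). Cxcr6 (1.96-fold), Ccr10 (1.83-fold) and Cxcr3 of lymphocytes were higher, and Ccr3 of eosinophils (2.31-fold) and the scavenging receptors Ackr2 (1.38-fold) and Ackr3 (1.31-fold) lower. Of 24 inflammatory cytokine and NF-kB genes, 4 were higher and 0 lower (0 lower at an unadjusted p below 0.05): the chemokine Ccl20 (2.64-fold), the decoy receptor Il1r2 (2.77-fold), Il1a (1.73-fold) and the adhesion molecule Icam1 (1.23-fold). Tnf (0.50, adjusted p 0.0689), Il1b (0.28, adjusted p 0.0876) and Il6 (-0.30, adjusted p 0.146) did not pass the test. Il1a and Ackr3 lost their call with the slide or scan day in the fit, and without SD array 3 the cytokine list had 7 called in place of 4.

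**Figure D5:**
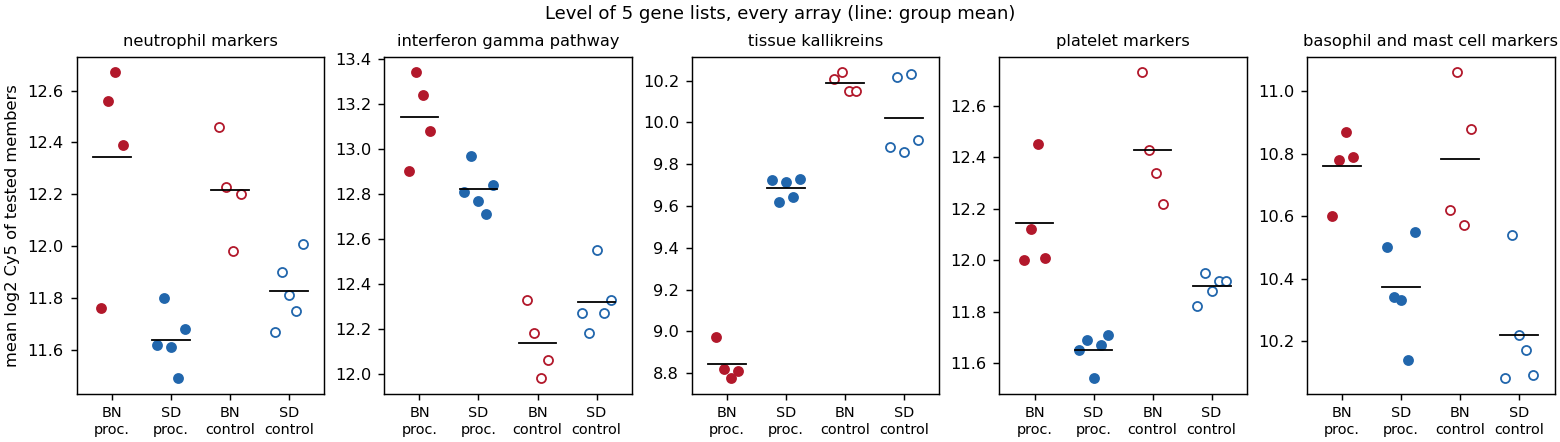
Mean normalized log2 Cy5 over the tested members of 5 gene lists (vertical axis, a scale for each panel) on every array, with procainamide arrays filled, control arrays open, BN red, SD blue and a line at each group mean. Kallikreins lie between 8.77 and 8.97 on treated BN arrays and between 9.62 and 9.73 on treated SD arrays, while the neutrophil level of BN array 1, at 11.76, falls inside the SD range.

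Markers of other cell types were counted beside the 9.75% of all named genes higher in BN and the 9.99% lower. Basophils and mast cells had 6 of 17 markers higher in BN and 0 lower (1 at an unadjusted p below 0.05): Ms4a2, the beta chain of the IgE receptor, was at 9.78, 9.88, 9.50 and 9.95 in BN and at 8.85, 8.59, 8.24, 8.19 and 8.74 in SD (2.39-fold, adjusted p 7.36e-04), and the protease Mcpt8 was 1.88-fold and the IgE receptor chain Fcer1a 1.82-fold higher. The median difference of the list was 0.50, and 0.64 in controls. Platelets had 6 of 17 higher and 1 lower, with a median of 0.42 and of 0.50 in controls. Nrgn (2.18-fold), Treml1 (2.34-fold), the von Willebrand receptor chains Gp1bb (1.77-fold) and Gp5 (1.83-fold), and the chemokine Pf4 (1.53-fold) were higher in BN, and the integrin Itgb3 1.43-fold lower. The mean level of the platelet list was at most 11.71 on SD arrays and at least 12 on BN arrays, without overlap. Eosinophils had 2 of 13 markers lower in BN, Ccr3 and Siglec5 (2.17-fold), and 0 higher, also at an unadjusted p below 0.05. Erythroid genes had 1 of 36 lower, Hbe1, and 0 higher (2 higher at an unadjusted p below 0.05), with 2 called without SD array 3. Fcer1a and Itgb3 lost their call with the slide or scan day in the fit, and Siglec5 with the slide.

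Plasma cell genes had 5 of 12 higher in BN and 0 lower in limma (0 at an unadjusted p below 0.05). Prdm1, the factor that commits B cells to secretion, was at 13.07, 13.18, 12.76 and 12.93 in BN and at 11.88, 11.98, 12.08, 12.25 and 12.36 in SD (1.84-fold, adjusted p 3.76e-04), with a like difference in controls (0.82). The lowest BN array lay above the highest SD array. Irf4, which acts with it, was 2.00-fold higher, Creld2 of the secretory pathway 1.89-fold and Xbp1 1.39-fold. B cell markers had 1 of 18 higher and 2 lower. Bach2, a repressor that holds B cells and T cells in a resting state, was at 13.94, 12.76, 11.32 and 13.70 in BN and at 10.73, 10.71, 11.20, 10.76 and 10.96 in SD, 4.16-fold higher with a wide spread in BN (adjusted p 1.41e-03). The IgE receptor Fcer2 (1.53-fold) and the complement receptor Cr2 (1.31-fold) were lower in BN. Xbp1 and Cr2 lost their call with the slide or scan day in the fit, and Creld2 with the slide. The 5 plasma cell genes became 2 without BN array 2, 3 without BN array 4 and 8 without SD array 3, and the 3 B cell genes became 5 without SD array 3.

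NK cell and cytotoxic genes had 5 of 33 higher in BN and 1 lower. The inhibitory receptor Klrc1 was at 9.87, 10.39, 9.56 and 10.33 in BN and at 8.56, 8.86, 9.09, 8.67 and 9.09 in SD (2.28-fold, adjusted p 6.39e-04), and its activating relative Klrc2 was 1.91-fold higher. In both genes the strains did not overlap, and the controls differed by 0.05 and -0.09. Perforin (Prf1) was 1.30-fold and Nkg7 1.22-fold higher. T cell genes had 5 of 24 higher, among them Cd28 (1.85-fold), Cd8b (1.93-fold) and Cd5 (1.28-fold), and 2 lower, Lef1 (1.40-fold) and Cd3g (1.19-fold). Cd6 had probes called in both directions and so has no settled one, though the 5 higher include it by its brightest probe. None of the 5 higher kept its call with the slide as a random block (6 were higher at an unadjusted p below 0.05), nor did Prf1, Nkg7, Il21 or Il4r, and the 7 called became 4 without SD array 4 or SD array 5. Of 15 genes of regulatory, Th17 and follicular T cells, Il2rb (1.57-fold), the checkpoint receptor Lag3 (1.78-fold) and Il21 (1.44-fold) were higher in BN and Foxp3, the factor of regulatory T cells, lower. Foxp3 was at 9.57, 9.32, 9.18 and 9.21 in BN and at 9.80, 9.66, 9.83, 9.98 and 9.66 in SD, without overlap but close (1.38-fold, adjusted p 6.62e-03). Of 14 Th2 genes, the receptor chain Il4r (1.41-fold) was higher and 0 lower (2 at an unadjusted p below 0.05), with Gata3 at 0.06 and Il4 at -0.37, neither past the test, and 3 were called without BN array 1 and 2 without BN array 4.

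Monocyte markers had 2 of 23 higher, F13a1 (2.18-fold) and Apobec1 (1.53-fold), and 2 lower, the scavenger receptor Cd36 (1.41-fold) and the integrin Itgam (1.61-fold). Of 21 genes that clear dead cells and DNA, 5 were higher in BN and 1 lower, beside 9.75% and 9.99% of all named genes. The scavenger receptor Marco was at 9.88, 13.10, 11.75 and 10.14 in BN and at 9.28, 9.05, 9.37, 9.33 and 9.88 in SD, so that BN arrays 2 and 3 carried most of its difference (3.57-fold, adjusted p 0.0110, and 0.0610 with the slide as a random block). The pentraxin Ptx3 was not well above background on any SD array and at least 2.56-fold higher in BN. Axl, a receptor for apoptotic cells, was 1.499-fold lower. Of 26 complement genes 1 was higher and 5 lower, among them the receptor C3ar1 (1.76-fold) and the regulator Cfi. Cfi was well above background on 1 of 4 BN arrays, and its measured difference of -1.67 ran from -1.57 to -3.30 over the alternatives. The receptor C5ar1 was 1.45-fold higher. Of 27 Toll-like receptor genes, 5 were higher, with Tlr3 at 1.95-fold, and 3 lower, with Tlr10 at 1.73-fold and the signal transducer Traf6 at 3.36-fold. Tlr4 (-0.29) did not pass the test, nor did Tlr7, an RNA sensor linked to lupus (adjusted p 1.00). Apobec1 lost its call with the slide as a random block and Axl with scan day as a term. Without BN array 2 the clearance list had 3 genes called and the Toll-like receptor list 5, the former also 3 without SD array 4 or 5 and the latter 5 without BN array 4.

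Of 16 genes listed for DNA methylation and tested, 1 was higher in BN and 2 lower, beside 9.75% and 9.99% of all named genes. The 1 higher was Apobec1, which is counted among the monocyte markers as well. The demethylase Tet3 (1.25-fold) was among the 2 lower. Dnmt3a differed by 0.43 and did not pass (adjusted p 0.0663), and Dnmt1 is not among the genes tested. Of 13 genes known to respond to lost methylation in T cells, 1 was higher, Prf1, and 2 lower, Itgal and Itgam. Itgal was at 9.65, 10.97, 10.79 and 10.59 in BN and at 12.30, 12.53, 11.52, 12.04 and 12.003 in SD. All BN arrays were lower than all SD arrays (3.00-fold, adjusted p 3.35e-04), and the difference in controls was -2.65. Cd40lg, another gene of this list, differed by 0.16 (adjusted p 0.630). Tet3 and Prf1 lost their call with the slide as a random block, and without BN array 1 the second list had 5 genes called in place of 3.

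Of 33 genes of the type I interferon response, Ifit3 (2.12-fold) and Ifi47 (1.69-fold) were higher in BN and Ifitm3 (1.22-fold) and Oas2 (1.91-fold) lower. For this and the next lists, 9.75% of all named genes were higher and 9.99% lower. Oas2 was at 10.30, 9.42, 9.61 and 9.49 in BN and at 10.04, 9.88, 10.45, 11.53 and 11.30 in SD. SD arrays 4 and 5, scanned on the other day, were the highest, and on the arrays of the shared day alone the difference was -0.42 (adjusted p 0.269). Glycolysis had 7 of 33 higher, led by Eno2 (1.86-fold), Ldhb (1.63-fold) and the lactate exporter Slc16a3 (1.63-fold), and 2 lower, and 3 higher and 0 lower with the slide as a random block. Ribosomal proteins had 0 of 75 higher and 5 lower, of which Rpl8 (1.28-fold) and Rps27 (1.23-fold) had the smallest p-values, and oxidative phosphorylation had 0 of 68 higher and 3 lower. At an unadjusted p below 0.05, 0 ribosomal and 2 oxidative phosphorylation genes were higher. Counts in these lists moved with single arrays: without BN array 4, 1 type I interferon gene, 5 glycolysis genes, 3 ribosomal proteins and 1 oxidative phosphorylation gene were called, and without SD array 4 the first 3 of these were 2, 5 and 3. The interferon genes were 2 without BN array 2, the ribosomal proteins 3 and the oxidative phosphorylation genes 1 without SD array 5. Ifi47, Ifitm3 and Oas2 lost their call with the slide or scan day in the fit, and Rpl8 with scan day.

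Of 37 cell cycle genes 0 were called by limma in either direction, while 1 higher and 2 lower had an unadjusted p below 0.05 (1 gene was called without SD array 1 or without SD array 2). Among all named genes 9.75% were called higher in BN and 9.99% lower. Glutathione and antioxidant enzymes had 2 of 38 higher, Gsto2 (2.04-fold) and Gsta1 (1.21-fold), and 3 lower, including Sod3 (1.56-fold). Glucocorticoid response genes had 2 of 19 higher, Il1r2 and Cebpb (1.26-fold), and 3 lower, including Ddit4 (1.41-fold) and Hsd11b1 (1.32-fold). Among 27 immediate early genes Nr4a2 (1.86-fold) was higher and Fos (1.72-fold) lower. Vessel, connective, gland and eye genes, listed because blood was drawn at the eye, had 2 of 30 higher, Krt14 (3.48-fold) and Col4a1 (1.25-fold), and 3 lower, Cdh5 (1.41-fold), Mgp (1.37-fold) and Esam (1.32-fold). Of the genes in this paragraph, Gsta1, Cebpb, Ddit4, Hsd11b1, Fos, Nr4a2, Krt14, Col4a1, Mgp and Esam lost their call with the slide as a random block, and Cdh5 with scan day as a term. The antioxidant list had 3 genes called without BN array 4, SD array 4 or SD array 5, the immediate early list 1 without BN array 2, and the vessel list 3 without BN array 2 or 4 and 8 without BN array 3 or SD array 2. Of 29 genes picked earlier from these same data for their drug response, 5 were higher and 9 lower. The egg-coat gene Zp3 was at 9.65, 10.08, 9.53 and 9.80 in BN and at 7.39, 7.64, 7.70, 6.92 and 7.43 in SD. It was 5.08-fold higher in BN without overlap (adjusted p 3.04e-07), and the difference in controls was 0.39.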

How the data were processed

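The files are the scanner output of 18 Agilent 2-colour arrays, design 028279, made with Feature Extraction 10.7.1.1, per the file headers, together with a matrix of processed values. The deposited intensity values are median brightness, spot and local background apart, not normalized, per the file headers. The processed intensity was background-subtracted, spatially detrended and dye-normalized by that software, and its log10 ratio is processed Cy5 over processed Cy3, per the file headers. No source used here states how the matrix of log2 values that the authors deposited was scaled, centred or directed. Set against the scanner's ratios taken to base 2, each column had r of at least 0.9995 and slope 1, so it holds uncentred log2 ratios, Cy5 over Cy3. Its column medians ran from -0.014 to 0.0653. It was used only for the treated minus control difference.

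Cy5 and Cy3 were background-corrected with normexp (offset 50), normalized by loess within arrays (control spots at weight 0) and Aquantile between arrays in limma 3.58.1 (R 4.3.3), and log2 Cy5 was kept. Spots with a non-uniformity or outlier mark were dropped, unless a probe had no other spot on that array (0.0741% of probe values). Median rather than mean spot signals were used, as the files hold these. Of 30367 probes, 18355 carried 1 gene symbol, matched by accession to RefSeq's gene table (GRCr8), since the files name no gene, and 12012 carried none. A probe was tested if 4 or more of the 9 procainamide arrays had it well above background in Cy5 (25487 probes). A gene's brightest probe represents it.

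Contrasts came from 1 limma model (lmFit, eBayes) with 4 group means over all 18 arrays (14 residual degrees of freedom, 2-sided, Benjamini-Hochberg over all probes, threshold 0.05). The script was tested on simulated data. Replicate numbers did not pair strains (correlations of deviations from -0.221 to 0.242). Named are the 12 highest and 12 lowest genes in BN that passed without overlap and were well above background on all arrays of the higher strain, up to 4 members of smallest p per list, other list members where their role is described, and the 8 smallest p-values of the treated minus control difference. Members and lists were chosen with earlier results of these data known. Alternatives covered normalization, background, the filter, the arrays used, slide, scan day, brightness, replicate number, array weights and each procainamide array left out. Control arrays were not left out 1 at a time. The number of arrays limits the precision.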

Additional observations from a re-analysis of the deposited data

Results flagged for a closer look

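Of 272 groups of procainamide arrays examined, those of either strain for the 136 genes chosen by the naming rule, 24 held 1 array far from the others by Dixon's criterion, which chance alone meets in about 1 group in 20. Among the 4 BN arrays, array 1 stood apart for Echdc2 at 9.63, Retn at 12.11, Prtn3 at 9.14, Il2rb at 15.17, Rps27 at 15.78, Ifit3 at 13.18 and Cdh5 at 10.01. BN array 2 did so for Sod3 at 12.66, Rpl8 at 15.84 and Mgp at 15.16, BN array 3 for Cyp2d1 at 13.57, Gpr15lg at 12.27, Cela1 at 11.45 and Ackr2 at 9.35, and BN array 4 for Ndufb10 at 15.06. Among the 5 SD arrays, array 1 stood apart for Cfi at 8.94, array 2 for RT1-Bb at 15.47, Ptx3 at 6.47 and Il1r2 at 12.09, array 3 for Vegfb at 12.96, Rasgef1c at 10.05 and Treml1 at 11.36, array 4 for Ackr2 at 9.67, and array 5 for Cd36 at 15.14. BN array 1 was the one most often apart in BN among these genes. Other genes of the report were not examined in this way, such as Elane, where BN array 1 was at 7.38 beside 9.30 to 9.41 on the other BN arrays.

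For 26 of the same 136 genes, the strain difference under procainamide differed from that in controls in limma by at least 1 on the log2 scale, given here as treated minus control. Genes with a smaller difference and genes outside the 136 are not listed, though 4194 of all named genes passed this test. It was positive for Zp3 (1.95), Mmp8 (1.80), Spink2 (1.59), Ccr1 (1.49), Il1r2 (1.42), Cxcr6 (1.32), Klrc1 (1.14), Itgal (1.07) and Klrc2 (1.03). It was negative for Oas2 (-3.28), Klk1b3 (-2.71), Klk1 (-2.04), Hyal1 (-2.03), Masp1 (-1.87), Or4d2b (-1.87), Retn (-1.87), Klk1c8 (-1.78), Klk1c3 (-1.75), Guca1b (-1.65), Vom2r36 (-1.58), Rasgef1c (-1.52), Rnf112 (-1.32), Xkr6 (-1.30), Cdh5 (-1.27), Bpi (-1.11) and Adgrb1 (-1.04). The adjusted p-values ran from 2.95e-05 for Rnf112 to 0.0299 for Il1r2. No probe passed this test with scan day as a term, and the part of scan day in these values was not tested further.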

How the results depend on the processing

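The 5261 probes called under procainamide became 2742 (1165 higher in BN, 1577 lower) on the 9 arrays alone, 2127 (856 and 1271) with the slide as a random block, 2630 (1111 and 1519) with scan day as a term, 2627 (1081 and 1546) on the arrays of the shared scan day, and 2893 (1214 and 1679) with array brightness as a term. On the 7 procainamide arrays of the shared day, an alternative chosen after seeing the data, 721 were called. Without 1 of the 9 procainamide arrays the count ran from 3260 to 5836. Quantile normalization gave 5091, processed signals 6383, no background correction 5220, no filter 5225 and array weights 4032. In controls, the slide as a block gave 4461, scan day 382 and brightness 2690. Leaving out 1 procainamide array gave 9717 to 10341 there. Such a fit cannot change the control difference itself, only the estimate of its spread, and no control array was left out. The treated minus control difference gave 4329 with the slide, 0 with scan day (2719 at an unadjusted p below 0.05 in limma) and 986 with brightness. It gave 2847 on log2 ratios of Cy5 over Cy3, 2203 in the authors' deposited matrix, and 7618 to 9384 without 1 procainamide array. The cause of these changes was not tested. Of the 136 genes chosen by the naming rule, the only genes run under every alternative, 54 kept their call under all 22 alternatives and 0 reversed, and 99 kept it with the slide as a block and 56 on the procainamide arrays of the shared day alone. Among them, Prf1, Mcpt10 and Krt14 lost their call without BN array 2, Pfkfb2 and Esam without BN array 4, Fos without BN array 1 or 2, Creld2 without BN array 2 or 3, Xbp1 without BN array 2 or 4, Rfx5 without BN array 2 or SD array 4, Ifitm3 without BN array 1 or 4 and Ndufab1 without BN array 4 or SD array 5. Cr2, Tgm2, Gsta1, Ndufs8, Ndufb10, Rpl27a, Ifi47 and Oas2 did so without any of 3 or more arrays.

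With the replicate number as a block, which shares only a number between strains, 3431 probes were called under procainamide, 9355 in controls and 7983 for the treated minus control difference.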
